A study of Mus musculus with 10 samples.

Results

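The 40 genes described here encode the autophagy machinery of the mouse: the factors that start an autophagosome, the enzymes and small proteins that build its membrane, the receptors that load cargo into it, and 3 genes of regulation and fusion. The rule is a list of gene names and uses no measured value, but the list was drawn up with earlier results of these data known. All 40 were found among the 16936 protein-coding genes with an FPKM value (fragments per kilobase of gene length, scaled to the reads of the sample). Cells were mouse bone marrow-derived macrophages, grown from marrow in 50 ng/mL GM-CSF, a myeloid growth factor, over 7 days. Of 10 samples 5 stayed untreated and 5 received PLG, which the series' design text gives as plasminogen of human origin, for 24 h. Strain, sex and age of the mice are not given in the labels, and no sample carries a named genetic change. Nothing in the labels ties a replicate to its own mouse or culture, and p-values therefore reflect sample-to-sample spread alone, which may be technical.

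Autophagy wraps parts of the cytoplasm, damaged organelles or microbes in a growing double membrane and delivers them to the lysosome. Signalling by the ULK kinase complex and a lipid kinase marks the membrane, ATG enzymes then attach ubiquitin-like ATG8 proteins (LC3 and GABARAP) to it, and receptors that bind both ubiquitin and ATG8 bring in selected cargo. In macrophages the same factors also act on phagosomes and limit inflammatory signalling. Much of the control acts on proteins and membranes, and RNA levels do not measure autophagic activity.

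Reads on all protein-coding genes with an FPKM value, recovered from the step size of low values, ranged from 28426107 to 64214515 per sample. Every autophagy gene was at 1.41 FPKM or more in every sample, on at least 140 reads. Of 8 macrophage markers 6 fell, 1 rose and 1 did not pass, and their sum was 5886 to 7404 FPKM in untreated and 2574 to 2785 FPKM in PLG samples. Most of that sum was Lyz2 (mean 5792 in untreated and 2000.1 FPKM in PLG samples), while Adgre1, the gene of F4/80, rose from 80.02 ± 4.8 to 177 ± 9.79 FPKM (mean ± SD, n = 5) and Fcgr1, at 15.5 ± 4.04 and 16.7 ± 1.16 FPKM, did not pass. The 7 dendritic cell markers summed to 304 to 346 FPKM in untreated and 671 to 741 FPKM in PLG samples, and of the 6 tested 3 rose and 3 fell. Ccr7 rose from 38.1 ± 10.8 to 542 ± 27.1 FPKM, whereas Itgax fell from 270.2 ± 14.9 to 156 ± 6.59 FPKM and Clec9a and Cd209a fell too. The 5 neutrophil markers in the table summed to 0.573 to 1.36 FPKM in untreated and 2.20 to 3.97 FPKM in PLG samples, where Camp (0.254 ± 0.351 to 2.40 ± 1.01 FPKM) was the 1 gene tested and Mpo and Ly6g were at 0 in every untreated sample. The 5 fibroblast markers summed to 0.470 to 0.774 and 5.31 to 6.66 FPKM, where Pdgfrb (0.253 ± 0.0786 to 5.18 ± 0.256 FPKM) was the 1 gene tested and Col1a1, Col1a2, Dcn and Pdgfra stayed at or under 0.589 FPKM in every sample. The 7 lymphocyte markers summed to at most 1.20 FPKM in any sample, and the 4 mast cell and basophil markers to 7.40 to 17.1 FPKM in untreated and 8.24 to 11.8 FPKM in PLG samples. In such bulk samples fewer cells of a type and less RNA per cell cannot be told apart, and the part of these marker shifts in the results below was not tested. The repeat-like gene models Gm10800, Gm10801 and Gm21738 together took 0.12% to 5.23% of the reads, and untreated 2, PLG 3 and PLG 4 lay lowest in them. Mitochondrially encoded genes took 1.34% to 1.41% of the reads in untreated and 0.91% to 1.03% in PLG samples.

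The largest changes fell on a few single genes. With PLG the cargo receptor gene Sqstm1 rose 3.0-fold (ratio of mean FPKM), Uvrag, of the lipid kinase complex, rose 1.84-fold, the transcription factor gene Tfeb fell to 0.271 of its untreated level, and the conjugation enzyme genes Atg7 and Atg3 fell to 0.553 and 0.655 of theirs. By limma across all 9997 genes tested (Benjamini-Hochberg adjusted p under 0.05), 9 of the 40 genes were higher with PLG, 8 were lower and 23 did not pass. The 17 called are 42.5% of the 40, where 60.4% of all tested genes were called, 29.1% as higher and 31.3% as lower. With median-of-ratios scaling the split was 11 higher and 6 lower, and with quantile normalization it was 8 higher and 12 lower. Without the 3 samples low in the repeat-like gene models it was 6 higher and 7 lower. The samples of the groups did not overlap for 12 of the 40 genes (30.0%), against 47.2% of tested genes. A called change of a fold of 2 or more on the log2(FPKM + 1) scale was found for Sqstm1 and Tfeb, 2 of 40 or 5.0%, against 14.0% of tested genes. The median log2 fold change was -0.02 for the 40 genes and -0.02 for all tested genes, and the median absolute change was 0.15 and 0.30. These counts describe the 40 genes beside the table and are not a test between them.

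**Figure D1:**
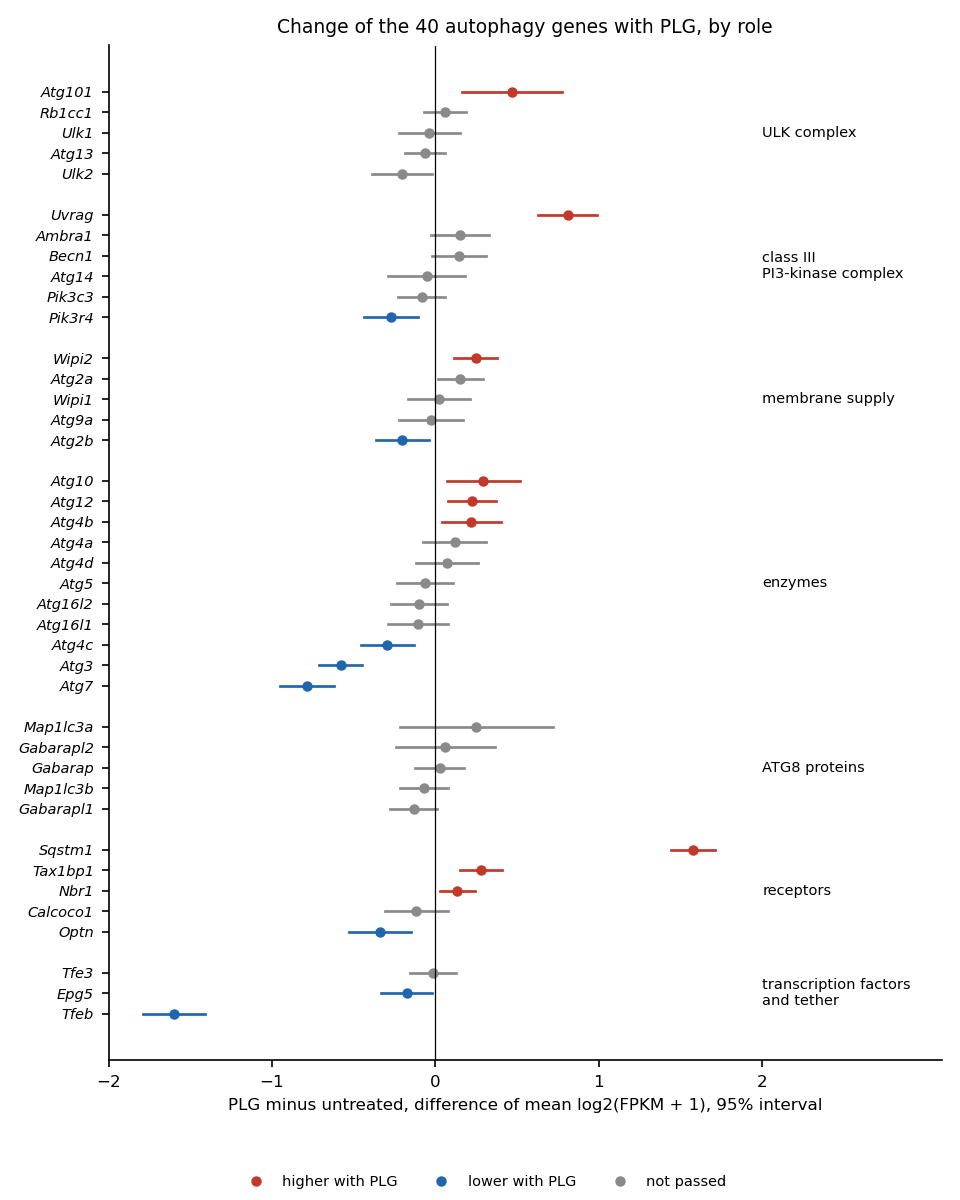
Log2 fold change (x axis, PLG minus untreated on the log2(FPKM + 1) scale) of the 40 autophagy genes (y axis, in blocks by role), with 95% limma intervals from 5 untreated and 5 PLG samples; red and blue points passed as higher and lower, grey points did not pass. Sqstm1 (1.58) and Tfeb (-1.60) stand far from 0, and Uvrag, Atg7 and Atg3 follow, while the 5 genes of ATG8 proteins are all grey.

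Levels are compared here in FPKM, which takes the merged exons of a gene as its length. The order of genes therefore depends on those lengths as well as on the reads. In FPKM a few genes of the membrane and cargo end of the pathway led. In untreated samples Gabarap (134 ± 3.93 FPKM) and Sqstm1 (131 ± 7.85 FPKM) were the most abundant, within each other's spread, followed by Gabarapl1 (71.4 ± 5.46 FPKM) and, well below, Tax1bp1 (25.1 ± 1.72 FPKM) and Atg3 (23.2 ± 1.42 FPKM). With PLG Sqstm1 led alone at 393 ± 33.1 FPKM, ahead of Gabarap at 137 ± 16 FPKM and Gabarapl1 at 65.1 ± 5.72 FPKM. The lowest of the 40 in either group was Atg16l2, a relative of Atg16l1, at 1.73 ± 0.107 FPKM in untreated and 1.55 ± 0.173 FPKM in PLG samples. The median coefficient of variation over the 40 was 9.72% in untreated and 7.96% in PLG samples.

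Among the 16 initiation genes 3 rose, 2 fell and 11 did not pass. The 5 genes of the ULK complex, the kinase assembly that receives nutrient signals, gave 1 call. Ulk1, its main kinase, was at 6.25, 7.51, 8.50, 8.35 and 6.8 FPKM in untreated samples 1 to 5 and at 7.72, 6.59, 6.99, 6.99 and 7.90 FPKM in PLG samples 1 to 5. The groups overlapped throughout, and the 95% interval of the log2 fold change ran from -0.22 to 0.15 (limma adjusted p = 0.730). Atg13, the regulatory subunit and the most abundant of the complex, was at 20.1, 18.5, 19.2, 21.4 and 21.3 FPKM in untreated and at 17.5, 19.7, 19.6, 19.6 and 19.5 FPKM in PLG samples (interval -0.19 to 0.06). It did not pass, and PLG 1 lay below the other PLG samples. Rb1cc1, the scaffold also called FIP200, was at 5.59 ± 0.239 and 5.87 ± 0.151 FPKM and did not pass.

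Atg101, which stabilises Atg13, was the one gene of the ULK complex that passed. It averaged 7.36 ± 1.52 FPKM in untreated and 10.6 ± 2.04 FPKM in PLG samples (log2 fold change 0.47, SE 0.14, limma adjusted p = 0.0108) and passed in all 21 alternative settings. Its groups overlapped: PLG samples ranged from 8.25 to 13.6 FPKM, and the untreated samples from 5.06 to 8.96. The highest values were those of PLG 3 and PLG 4, the samples lowest in the repeat-like gene models. Ulk2, the second kinase, was at 11.4 ± 1.47 FPKM in untreated and 9.74 ± 0.782 FPKM in PLG samples and missed the threshold (log2 fold change -0.21, limma adjusted p = 0.0514). It passed as lower in 7 of 21 settings, among them without untreated 5 (limma adjusted p = 0.00964) or PLG 1 (0.0325). No gene of this complex passed as lower by limma on FPKM, 1 had an unadjusted p under 0.05 in that direction, and 1 was called lower by voom on recovered reads.

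The class III phosphatidylinositol 3-kinase complex makes the lipid that marks the growing membrane, and of its 6 genes 1 rose, 1 fell and 4 did not pass. Uvrag (ENSMUSG00000035354.9, chromosome 7, 98885021 to 99141141 on GRCm38) encodes the subunit that replaces Atg14 in the complex that acts on endosomes and on the maturation of autophagosomes. Uvrag was at 7.93, 9.23, 6.71, 6.68 and 6.77 FPKM in untreated samples and at 13.9, 12.9, 13.4, 14.6 and 13.9 FPKM with PLG. Every PLG sample lay above every untreated one. The log2 fold change was 0.81 (SE 0.08, limma adjusted p = 1.36e-06), and Uvrag passed in all 21 settings. An antisense gene shares 17.6% of its exon bases, and the strand setting of the counting is not given in the sources used here.

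Atg14, the subunit of the complex that starts autophagosomes, was at 3.79 ± 0.667 FPKM in untreated and 3.60 ± 0.486 FPKM in PLG samples and did not pass (95% interval of the log2 fold change -0.29 to 0.18). Becn1, the Beclin scaffold shared by the Atg14 and Uvrag forms, was at 5.64, 6.83, 6.13, 6.22 and 7.03 FPKM in untreated and at 6.74, 6.44, 8.12, 7.40 and 7.01 FPKM in PLG samples. Its groups overlapped, and the limma adjusted p was 0.125, while median-of-ratios scaling called it higher (log2 fold change 0.18, limma adjusted p = 0.0324). Cntd1 covers 43.9% of the exon bases of Becn1 on the other strand, at 0.356 FPKM or less in every sample.

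The catalytic subunit gene Pik3c3 was at 7.73 ± 0.504 FPKM in untreated and 7.24 ± 0.479 FPKM in PLG samples and did not pass. Pik3r4, which encodes its regulatory partner, fell from 5.37 ± 0.427 to 4.27 ± 0.362 FPKM with no overlap of the groups (log2 fold change -0.27, limma adjusted p = 0.00692). Without the 3 samples low in the repeat-like gene models Pik3r4 no longer passed (limma adjusted p = 0.0571). Ambra1, a Beclin-binding regulator and the most abundant gene of this role that did not pass, was at 11.4, 8.32, 10.5, 9.03 and 10.5 FPKM in untreated and at 10.6, 11.8, 10.1, 11.3 and 11.8 FPKM in PLG samples.

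Of the 5 genes that supply and read the membrane 1 rose, 1 fell and 3 did not pass. Wipi2, which binds the lipid mark and recruits the Atg16l1 complex, rose from 5.66 ± 0.262 to 6.91 ± 0.318 FPKM without overlap (log2 fold change 0.25, limma adjusted p = 0.00331). Its relative Wipi1 was at 4.32 ± 0.604 and 4.37 ± 0.315 FPKM and did not pass. The lipid transfer protein gene Atg2b fell from 5.65 ± 0.371 to 4.79 ± 0.454 FPKM (log2 fold change -0.20, limma adjusted p = 0.0338). Atg2b lost its call without untreated 1 or 4 or PLG 1, 3 or 4 (limma adjusted p 0.0546 to 0.0943). Its relative Atg2a, the more abundant, was at 15.9, 14.1, 15.3, 17.2 and 13.5 FPKM in untreated and at 16.9, 16.4, 16.3, 17.7 and 17.6 FPKM with PLG. Atg2a missed the threshold with a log2 fold change of 0.15 (limma adjusted p = 0.0556) and passed as higher without untreated 4 (limma adjusted p = 0.0151). Atg9a, the scramblase of the seed vesicles, was at 6.77 ± 0.678 and 6.65 ± 0.911 FPKM and did not pass, and a noncoding transcript on the same strand shares 31.8% of its exon bases.

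Of the 16 conjugation genes 3 rose, 3 fell and 10 did not pass, and all 6 that passed were among the 11 enzyme and carrier genes. Atg7 and Atg3 work one after the other, Atg7 as the activating enzyme of the ubiquitin-like proteins and Atg3 as the enzyme that hands ATG8 on to its lipid. These genes fell furthest among the 16. Atg7 (ENSMUSG00000030314.16, chromosome 6, 114643097 to 114860614) was at 14.5, 17.6, 14.5, 18.9 and 16.8 FPKM in untreated samples and at 8.48, 9.20, 8.91, 9.85 and 9.01 FPKM with PLG. The lowest untreated sample lay far above the highest PLG sample. Its log2 fold change was -0.78 (SE 0.08, limma adjusted p = 8.33e-07).

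Atg3 (ENSMUSG00000022663.3, chromosome 16, 45158785 to 45188538) was at 21.9, 24.0, 22.8, 22.2 and 25.3 FPKM in untreated samples and at 15.5, 13.8, 15.7, 16.5 and 14.6 FPKM with PLG. Again no sample of one group reached the other. Its log2 fold change was -0.58 (SE 0.06, limma adjusted p = 1.58e-06), and both Atg7 and Atg3 passed in all 21 settings. The protease gene Atg4c, whose product trims ATG8 proteins, fell as well, from 10.1 ± 1.15 to 8.05 ± 0.377 FPKM without overlap (log2 fold change -0.29, limma adjusted p = 0.00371).

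Sequence before the transcription start is shown for Atg3, Atg7 and Atg5. Of the 33 genes with a matched RefSeq window, these hold the E-box CACGTG in the 250 bases before a RefSeq start. CACGTG is the core of the element that the Tfeb family of factors binds. The genes of the 40 without a matched window were not searched for any motif. RefSeq windows (GRCm38.p6) were matched for 33 of the 40 genes, as 40 windows, and 3 windows of 3 genes held the E-box, which reads the same on each strand, where 6.02% of all 32851 windows did. Each stretch below is 100 bases of the plus strand, 5′ to 3′, with E-boxes in capitals, and holds no exon of its gene in GENCODE M21.
Atg3, chr16:45158679-45158778: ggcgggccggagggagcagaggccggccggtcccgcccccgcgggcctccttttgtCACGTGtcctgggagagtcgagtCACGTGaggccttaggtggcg
Atg7, chr6:114670946-114671045: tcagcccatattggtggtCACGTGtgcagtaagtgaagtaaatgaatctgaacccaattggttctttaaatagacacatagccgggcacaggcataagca
Atg5, chr10:44268239-44268338: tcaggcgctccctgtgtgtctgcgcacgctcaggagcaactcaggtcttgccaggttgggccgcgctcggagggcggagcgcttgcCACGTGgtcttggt
The Atg3 stretch held 2 E-boxes, beginning at positions -94 and -71 from the RefSeq start, and the Atg5 stretch 1, beginning at -14. The Atg7 E-box began at position -132 from a RefSeq start that is 27999 bases inside the gene as the deposited table places it, so it is not at the gene's first base. Of 3 other motifs searched in the same windows on both strands, the antioxidant response element core TGACNNNGC was in 3 of the 40 windows (Atg13, Tax1bp1 and Ulk2) and in 10.2% of all windows. An NF-kB site was in 2 (Wipi2 and Atg101) and in 4.65% of all windows, and the interferon-stimulated response element in 0 and in 2.98%. A match is a description of letters and no evidence of binding, and none of these motifs was tested against the changes in level.

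Atg5, the most abundant conjugation enzyme gene that did not pass, was at 19.0, 23.3, 22.5, 19.1 and 22.8 FPKM in untreated samples and at 21.5, 17.3, 21.8, 21.6 and 19.8 FPKM with PLG. Its groups overlapped (95% interval of the log2 fold change -0.23 to 0.11). The partner of Atg5 in the conjugate, Atg12, rose from 7.90 ± 0.527 to 9.40 ± 0.711 FPKM (log2 fold change 0.22, limma adjusted p = 0.0114). It did not pass without the 3 samples low in the repeat-like gene models (limma adjusted p = 0.152). Atg10, which joins Atg12 to Atg5, went from 3.0 ± 0.502 to 3.89 ± 0.470 FPKM (log2 fold change 0.29, limma adjusted p = 0.0257). The protease gene Atg4b went from 3.50 ± 0.462 to 4.22 ± 0.239 FPKM (log2 fold change 0.22, limma adjusted p = 0.0367).

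These last calls were narrow. Atg10 did not pass without untreated 1 or 5 or PLG 1, 4 or 5 (limma adjusted p 0.0508 to 0.0682), and Atg4b did not pass without untreated 1 or 4 or PLG 1, 3 or 5 (0.0625 to 0.0892). The other proteases Atg4a (6.14 ± 0.725 and 6.75 ± 0.789 FPKM) and Atg4d (3.03 ± 0.369 and 3.23 ± 0.353 FPKM) did not pass. Nor did Atg16l1, which places the Atg12 and Atg5 conjugate on the membrane, at 4.88 ± 0.605 and 4.45 ± 0.351 FPKM, or Atg16l2, given above. The coding gene Kri1, at 3.1 to 4.6 FPKM, shares 19.3% of the exon bases of Atg4d on the other strand.

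**Figure D2:**
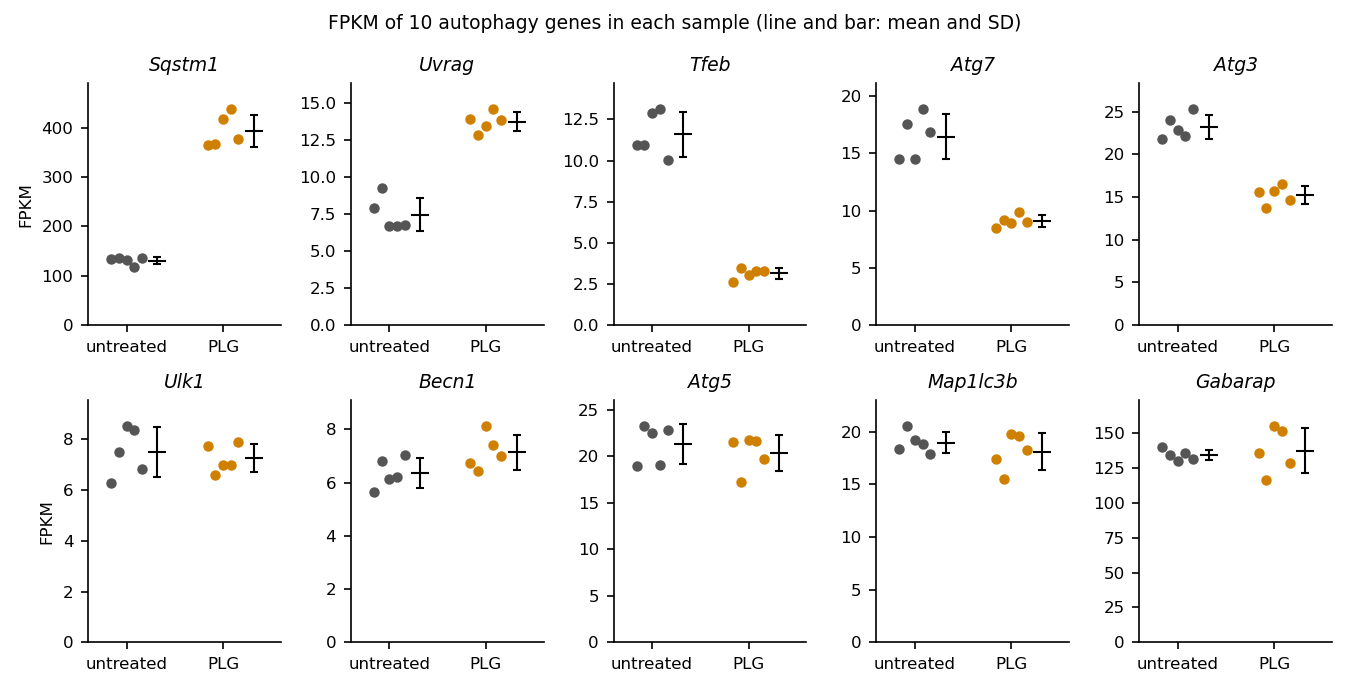
FPKM (y axis, from 0) of 10 autophagy genes in each of 5 untreated (grey) and 5 PLG (orange) samples, with the mean and SD of each group beside the points. The upper row shows the 5 genes with the largest changes, whose groups are apart (Sqstm1 at 117 to 137 against 365 to 438 FPKM), and the lower row 5 core genes whose groups overlap.

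The ATG8 proteins are the ubiquitin-like modifiers that end up on the membrane, and Gabarap, Gabarapl1 and Map1lc3b led their genes in FPKM in this order in each group. By reads per sample Map1lc3b (4539 to 9741) and Gabarapl1 (4129 to 9137) were alike. Their FPKM differ because the lengths used are 7517 and 2013 bases. Gabarap was at 140, 134, 130, 136 and 131 FPKM in untreated samples and at 135, 116, 155, 151 and 128 FPKM with PLG, a spread that was wider with PLG and enclosed the untreated values. Map1lc3b, whose product LC3B is the usual marker of autophagosomes, was at 18.4, 20.5, 19.2, 18.9 and 17.9 FPKM in untreated and at 17.4, 15.5, 19.8, 19.7 and 18.3 FPKM in PLG samples. Its groups overlapped, with a log2 fold change of -0.07 and a 95% interval of -0.21 to 0.08 (limma adjusted p = 0.414). Of the 5 genes 0 passed by limma, 0 had an unadjusted p under 0.05, and voom on recovered reads called 1, Gabarapl1.

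Gabarapl1 was at 71.4 ± 5.46 FPKM in untreated and 65.1 ± 5.72 FPKM in PLG samples (log2 fold change -0.13, limma adjusted p = 0.106). It passed as lower in 6 of 21 settings, among them without untreated 4 (limma adjusted p = 0.0449), without PLG 4 (0.0451) and without the 3 samples low in the repeat-like gene models (0.0279). A noncoding transcript on the other strand shares 28.3% of its exon bases. Gabarapl2 was at 7.20 ± 0.251 and 7.75 ± 1.89 FPKM, and without PLG 2 it passed as higher (log2 fold change 0.22, limma adjusted p = 0.00998). Map1lc3a had the widest relative spread of the 40, 3.66 to 9.51 FPKM in untreated and 5.59 to 11.1 FPKM in PLG samples, and its interval ran from -0.22 to 0.72. PLG 3 and PLG 4 held its highest values, as they did for Gabarap, Gabarapl1, Gabarapl2 and Map1lc3b among the PLG samples, and these are the PLG samples lowest in the repeat-like gene models. What these shared deviations come from was not tested.

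The sum of the 5 genes was 234 to 243 FPKM in untreated and 202 to 264 FPKM in PLG samples. Gabarap made up 54.6% to 58.0% of that sum in untreated and 56.6% to 59.9% in PLG samples. Map1lc3b made up 7.44% to 8.53% and 7.47% to 8.08%. Gabarapl1 made up 27.5% to 32.5% and 26.1% to 29.9%. All these shares are of FPKM and depend on the gene lengths used.

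**Figure D3:**
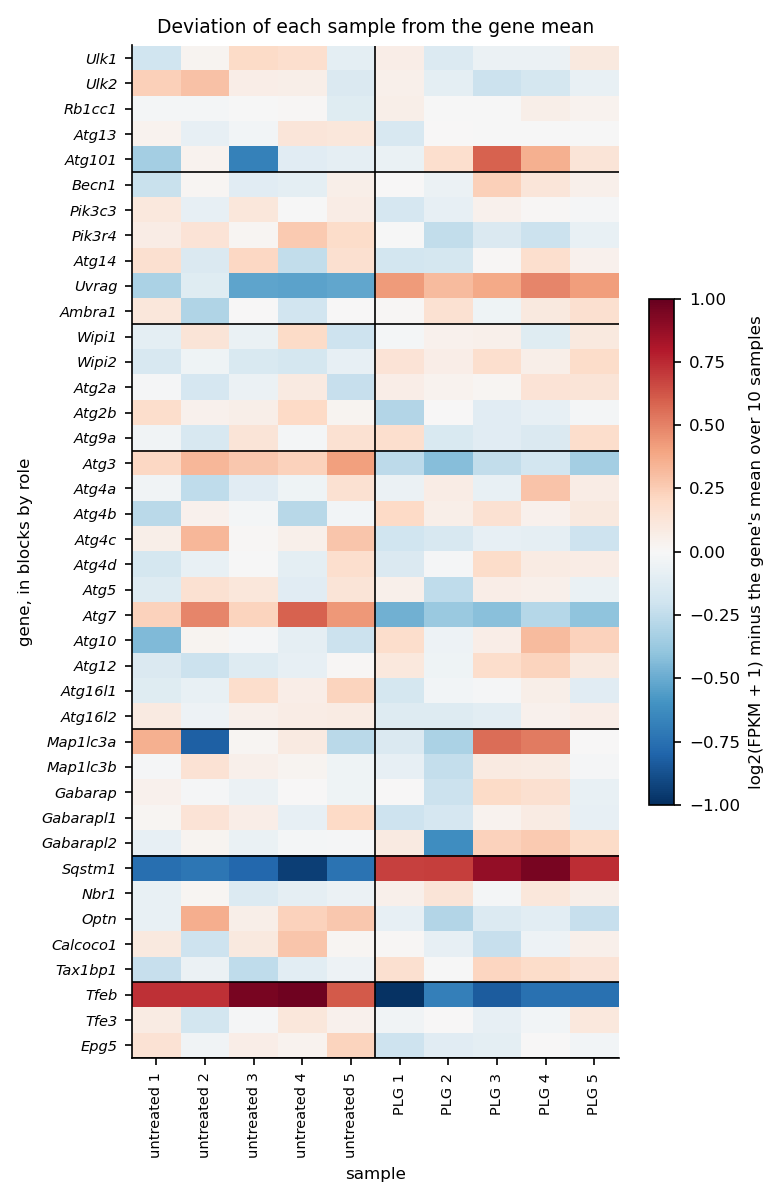
Colour shows log2(FPKM + 1) of each of the 40 autophagy genes (rows, in blocks by role) in each of the 10 samples (columns) minus the gene's mean over all samples. Sqstm1, Uvrag, Tfeb, Atg7 and Atg3 change colour at the line between untreated and PLG samples, while Map1lc3a and Gabarapl2 differ between samples of a group, with PLG 2 low in Gabarapl2 at 4.46 FPKM.

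Of the 5 receptor genes 3 rose, 1 fell and 1 did not pass. Sqstm1 (ENSMUSG00000015837.15, chromosome 11, 50199366 to 50210827) encodes p62, which binds ubiquitin and ATG8, is itself degraded by autophagy and also binds Keap1, the inhibitor of the redox factor NRF2. Sqstm1 was at 134, 137, 131, 117 and 136 FPKM in untreated samples and at 365, 367, 418, 438 and 378 FPKM with PLG. The lowest PLG sample was well over the highest untreated one. The log2 fold change was 1.58 (SE 0.06, 95% interval 1.44 to 1.71, limma adjusted p = 7.92e-11), and Sqstm1 passed in all 21 settings. Mrnip shares 17.3% of its exon bases on the other strand, at 0.71 FPKM or less in every sample. These are RNA levels, and the amount of p62 protein was not measured.

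The other receptors changed far less. Tax1bp1, a receptor that also restrains NF-kB signalling, rose from 25.1 ± 1.72 to 30.7 ± 1.80 FPKM without overlap (log2 fold change 0.28, limma adjusted p = 9.95e-04). Nbr1, a relative of p62 that binds it, went from 18.3 ± 0.778 to 20.1 ± 0.872 FPKM (log2 fold change 0.13, limma adjusted p = 0.0336). It missed the threshold without any single one of 8 of the 10 samples (limma adjusted p 0.0501 to 0.0768), the exceptions being untreated 2 and PLG 3. Nbr1 was also lost in 5 of 11 other settings, among them quantile normalization (log2 fold change 0.05, limma adjusted p = 0.395). Optn, the optineurin gene, whose product delivers bacteria and mitochondria, fell from 7.03 ± 0.951 to 5.33 ± 0.377 FPKM without overlap (log2 fold change -0.34, limma adjusted p = 0.00440). Calcoco1, which acts in turnover of the endoplasmic reticulum, was at 7.14, 5.60, 7.13, 8.20 and 6.71 FPKM in untreated and at 6.66, 6.19, 5.49, 6.33 and 6.88 FPKM in PLG samples and did not pass (95% interval of the log2 fold change -0.31 to 0.08).

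Tfeb and Tfe3 encode related transcription factors that switch on lysosomal and autophagy genes when the kinase mTORC1 is inactive, and 1 of them passed the test. Tfeb (ENSMUSG00000023990.18, chromosome 17, 47737030 to 47792419) was at 10.9, 10.96, 12.9, 13.1 and 10.005 FPKM in untreated samples and at 2.62, 3.48, 3.03, 3.30 and 3.28 FPKM with PLG. No PLG sample came near the untreated range. Its log2 fold change was -1.60 (SE 0.09, 95% interval -1.79 to -1.41, limma adjusted p = 2.12e-09), and it passed in all 21 settings. Tfe3 was at 15.3, 12.5, 14.2, 15.6 and 14.8 FPKM in untreated and at 14, 14.4, 13.5, 14.1 and 15.5 FPKM in PLG samples. The groups overlapped, with a 95% interval of the log2 fold change of -0.16 to 0.12. Tfe3 had the higher FPKM of these genes in both groups. It was at 14.5 ± 1.21 FPKM against 11.6 ± 1.37 FPKM of Tfeb in untreated samples. In PLG samples it was at 14.3 ± 0.756 FPKM against 3.14 ± 0.331 FPKM of Tfeb.

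Epg5, the tether that brings autophagosomes to late endosomes and lysosomes, went from 6.30 ± 0.509 to 5.46 ± 0.374 FPKM. With Tfeb it made 2 lower genes of the 3 in this class. Epg5 was the call closest to the threshold (log2 fold change -0.18, limma adjusted p = 0.0491), and it was lost without any single sample other than untreated 2 or PLG 4 (limma adjusted p 0.0537 to 0.123).

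For the 23 genes that did not pass, the 95% intervals bound what these samples allow. Leaving aside Map1lc3a, the intervals of the other 22 lay between -0.39 and 0.36 on the log2(FPKM + 1) scale. Called changes as small as 0.13 (Nbr1) lie within the same bounds, so each gene is to be read by its own interval, and a missed threshold does not show equal levels.

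Other genes of the pathway were taken from 6 lists that do not contain the 40. Of 86 genes in them, 82 were tested, 19 were higher with PLG, 39 lower and 24 did not pass, so that 70.7% were called, against 60.4% of all tested genes. All values come from the same 10 samples.

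Upstream, of 25 tested genes of mTORC1 and of its control at the lysosome, 7 rose, 13 fell and 5 did not pass. That is 80.0% called, against 60.4% of all tested genes, and the median log2 fold change was -0.26. Ddit4, a stress-induced inhibitor of mTORC1, rose from 1.79 ± 1.21 to 20.5 ± 2.86 FPKM (log2 fold change 3.02, limma adjusted p = 2.80e-08). Castor1, an arginine sensor, rose from 0.702 ± 0.465 to 6.74 ± 1.77 FPKM. Fnip2, whose product works with folliculin on the Rag GTPases, fell from 99.9 ± 6.07 to 24.5 ± 0.964 FPKM (log2 fold change -1.98, limma adjusted p = 1.26e-12). Sesn1, a leucine-sensing sestrin, fell from 7.99 ± 0.835 to 2.27 ± 0.442 FPKM. Lamtor5, part of the lysosomal anchor of mTORC1, was at 34.3 ± 2.76 and 36.0 ± 4.29 FPKM and did not pass.

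Genes of AMP-activated kinase, which activates ULK1 when energy is low, gave 2 higher, 2 lower and 4 not passed of 8 tested (median log2 fold change 0.04). The share called was 50.0%, against 60.4% of all tested genes. Prkab2 and Prkaa1, a regulatory and a catalytic subunit, rose from 1.26 ± 0.0634 to 1.98 ± 0.170 FPKM and from 13.7 ± 1.62 to 17.4 ± 0.886 FPKM. Cab39, a scaffold of the upstream kinase LKB1, fell from 36.6 ± 0.995 to 28.3 ± 1.04 FPKM, and Prkag2, another regulatory subunit, dropped from 2.62 ± 0.511 to 1.86 ± 0.222 FPKM. Stk11, which encodes LKB1, was at 22.6 ± 1.67 and 22.3 ± 1.27 FPKM and did not pass.

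Of 16 other phagophore factors 5 rose, 6 fell and 5 did not pass (median -0.11). The share called was 68.8%, against 60.4% of all tested genes. C9orf72, Wdr41 and Smcr8 encode partners in one complex: C9orf72 rose from 10.02 ± 0.925 to 16.8 ± 1.2 FPKM, Wdr41 fell from 9.85 ± 1.32 to 3.44 ± 0.104 FPKM, and Smcr8 was at 20.1 ± 1.32 and 21.6 ± 0.981 FPKM and did not pass. Nrbf2, which binds the Atg14 form of the lipid kinase, rose from 6.70 ± 1.75 to 8.82 ± 1.39 FPKM. Rubcnl, which promotes autophagosome maturation, fell from 5.76 ± 1.73 to 3.40 ± 0.497 FPKM.

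Downstream, of 16 genes of fusion with lysosomes 3 rose, 10 fell and 3 did not pass, with a median log2 fold change of -0.32. The share called was 81.2%, against 60.4% of all tested genes. Plekhm1, an adaptor that links Rab7 to the tethering complex HOPS, fell from 52.1 ± 2.65 to 19.9 ± 1.77 FPKM (log2 fold change -1.35, limma adjusted p = 3.76e-10). Tecpr1, which binds the Atg12 and Atg5 conjugate, fell from 34.0 ± 1.76 to 13.9 ± 0.680 FPKM (log2 fold change -1.23, limma adjusted p = 1.76e-10). Of the SNARE genes Ykt6 (28.3 ± 1.59 to 39.7 ± 2.81 FPKM) and Vamp8 (19.2 ± 1.99 to 26.4 ± 3.55 FPKM) rose. Snap29 (29.0 ± 1.18 to 13.4 ± 0.785 FPKM) and Stx17 (4.32 ± 0.952 to 2.63 ± 0.222 FPKM), SNARE genes too, fell without overlap. Vps16, a HOPS subunit, was at 12.8 ± 1.15 and 13 ± 0.766 FPKM and did not pass.

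Of 15 tested genes of other selective receptors and their partners 2 rose, 6 fell and 7 did not pass (median -0.11). The share called was 53.3%, against 60.4% of all tested genes. Keap1, the partner of p62 named above, rose from 13.4 ± 1.06 to 18.6 ± 0.793 FPKM, and Retreg1, a receptor for the endoplasmic reticulum, from 12.6 ± 1.34 to 15.0 ± 0.590 FPKM. Tex264, another receptor for the endoplasmic reticulum, fell from 19.4 ± 1.94 to 11.6 ± 0.301 FPKM and the mitochondrial receptor gene Bnip3l from 45.3 ± 2.27 to 33 ± 2.03 FPKM. Fkbp8, also on mitochondria, was at 35.4 ± 4.25 and 35.2 ± 3.05 FPKM and did not pass. The remaining genes of the Tfeb family, Mitf (26.8 ± 1.0 to 22.1 ± 0.739 FPKM) and Tfec (8.70 ± 0.953 to 4.72 ± 0.921 FPKM), fell without overlap, by less than Tfeb on the log2 scale (-0.27 and -0.77), a difference that was not tested.

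**Figure D4:**
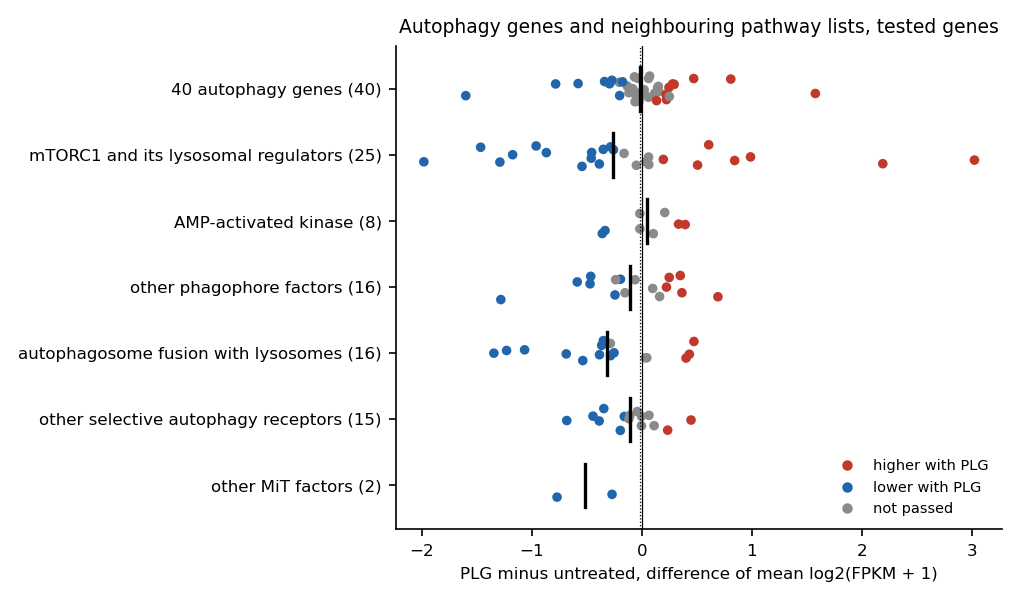
Log2 fold change (x axis, PLG minus untreated on the log2(FPKM + 1) scale) of the 40 autophagy genes and of the tested genes of 6 neighbouring lists (y axis, number tested in brackets); each point is a gene, coloured by its limma call, black bars are list medians and the dotted line is the median of all 9997 tested genes. The 40 genes centre on 0 with few points beyond 1 in either direction, and the fusion genes have a median of -0.32.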

How the data were processed

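Per the submitters' processing notes, the tools were STAR 2.7.3a, featureCounts 2.0.0, cutadapt 2.10, DESeq2 1.24.0 and FastQC 0.11.9 on GRCm38.p6. Their settings and the annotation release are not given in those notes. The deposited table holds FPKM made by the authors, with gene lengths per the file headers. For all 40 genes these lengths equal the merged exons of GENCODE M21.

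Reads were recovered from the largest step that made FPKM times length whole in a sample (within 0.1 read for at least 99.82% of low values), giving denominators of 31977261 to 70736844. Genes at 1 FPKM or more in at least 5 samples were compared on log2(FPKM + 1) with limma 3.58.1 (R 4.3.3), treatment as the only term. The fit used eBayes with an intensity trend and Benjamini-Hochberg adjustment over all 9997 tested genes. The procedure was also run on simulated data, but the outcome is not given here and no result rests on it. Far fewer genes were changed in the simulated data than were called here. Each value there was drawn independently, so deviations that genes of a sample share are not covered. Fold changes on this scale understate changes of low genes.

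The 40 genes and all lists were chosen with earlier results of these data known. Values in every sample are given for genes past the threshold with an absolute log2 fold change of at least 0.5, for Map1lc3b, Sqstm1, Ulk1, Becn1 and Tfeb, and for the most abundant gene of a role that did not pass; of each other list, up to 2 genes per direction with the largest change and the most abundant that did not pass. Snap29 and Stx17 are named in addition, beside the other SNARE genes. Promoter windows are RefSeq's. Some list genes were not analysed here.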

Additional observations from a re-analysis of the deposited data

Results flagged for a closer look

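In 80 groups of 5 samples (40 genes, each untreated and PLG), 4 held a sample set apart from the other 4 by more than 0.71 of the group's range, and chance sets apart about 1 in 20 groups. Atg13 was at 17.5 FPKM in PLG 1, with the other PLG samples at 19.5 to 19.7 FPKM. Gabarapl2 was at 4.46 FPKM in PLG 2, with the others at 7.89 to 9.02 FPKM. Rb1cc1 was at 5.18 FPKM in untreated 5, with the others at 5.64 to 5.78 FPKM. Sqstm1 was at 117 FPKM in untreated 4, with the others at 131 to 137 FPKM.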

How the results depend on the processing

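In 21 alternatives, 19 of them planned and 2 added after seeing the data, 10 of the 17 calls among the 40 genes held throughout. Over the 40 genes, calls as higher numbered 6 to 11 and as lower 6 to 12, against 9 and 8. With median-of-ratios scaling the initiation genes gave 5 higher and 1 lower, and the last class (Tfeb, Tfe3, Epg5) 1 lower. With quantile normalization 4 initiation and 5 conjugation genes were lower, and Gabarap turned to a called fall (log2 fold change -0.23, limma adjusted p = 0.00316). With a filter of 5 FPKM, which kept 32 of the 40 genes, 1 conjugation gene was higher. Without the 3 samples low in the repeat-like gene models 0 initiation genes were lower and 0 conjugation genes higher by limma (1 and 2 at an unadjusted p under 0.05). That set also holds fewer samples. Leaving out single samples gave 1 to 3 lower initiation genes, 1 to 4 higher conjugation genes and 1 to 2 lower genes in the last class. Atg10, Atg4b and Pik3r4 were not among the 32 genes kept by the filter, and Ulk2 passed as lower with it (limma adjusted p = 0.0457). The cause of the other shifts was not tested.

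The replicate numbers did not pair the samples: deviations of same-numbered samples correlated at -0.121 to 0.0988. With a replicate block 6 of the 40 genes were higher and 7 lower, conjugation genes gave 1 higher and the last class 1 lower. Depth did not bound detection of any of the 40 genes, since each had at least 140 reads per sample. Intervals reflect the spread of 5 samples.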
